A study of Mus musculus with 32 samples.

Results

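At birth (postnatal day 0, P0), the H3K9me3 peaks called in male germ cells of Morc1 heterozygous mice were set beside those called in Morc1 knockout mice, and the peaks found in 1 of the 2 lists only were located. The members were all autosomal peaks of the 2 P0 lists, 171102 of the 581860 autosomal peaks in the 8 lists of the series. Peaks of either list that overlapped the opposite list by 1 bp or more were taken as shared, and all others as het-only or KO-only. Of 82082 het peaks, 9541 were het-only, which is 11.6% of that list, and of 89020 KO peaks, 17423 were KO-only, which is 19.6%. Those shares are the background against which the counts below stand.

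The cells were gonocytes isolated from testis of mice that carried the Mvh-Venus transgene in both groups. The labels give the genotype Morc1 (+/-) for het and Morc1 (-/-) for KO, with 2 H3K9me3 samples each, and do not say how many animals a sample held. Each group had 1 peak list, which names no replicate, so there was no replicate error, no test between genotypes was possible, and every difference below describes these 2 lists. Lists of the same genotypes at E13.5 and E16.5 (embryonic days) and P3 (a postnatal day) served to follow the P0 peaks in other stages. Ranges in brackets are 95% Wilson intervals. They cover counting error alone and treat neighbouring peaks as independent. Read depth, the calling threshold and any use of the H3 samples as control are not given in the sources used here. They can set how many weak peaks a list holds, and their part in the results was not tested.

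H3K9me3, trimethylated lysine 9 of histone H3, marks constitutive heterochromatin and silences transposons and clusters of tissue-restricted genes. It is laid down by enzymes such as SETDB1 and SUV39H and read by HP1 proteins. MORC1 is a nuclear ATPase of male germ cells, needed for transposon silencing and for spermatogenesis, and the prospermatogonial (gonocyte) period around birth is when the male germline regains DNA methylation. Promoters rich in the dinucleotide CG usually lack H3K9me3, whereas promoters poor in CG, such as those of olfactory and vomeronasal receptor genes, often lie in silent chromatin.

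The classes differed in the promoters they covered. RefSeq promoter windows of assembly GRCm38.p6 were used, the same assembly as build mm10, which the submitters' processing notes name; each window has 300 bases, and 20084 of them belong to autosomal protein-coding genes. Het-only peaks held 52 whole windows (0.259% of all), of 51 genes, and KO-only peaks held 88 (0.438%), of 82 genes. The windows below are printed 5′ to 3′ along the gene, with each CG in capitals, as examples of windows rich and poor in CG that lay in unique peaks. First come the 3 het-only windows with the most CG, chosen after their values were seen. Then come the window in the longest het-only peak over a promoter (Vmn1r41) and those in the 2 longest KO-only peaks over one (Klra3 and Gm11555). Since the examples were chosen by different measures, they do not compare the classes, and the KO-only window with the most CG, at Zbtb14, holds 56. Cdk13 encodes a kinase of transcription elongation, Zdhhc5 a palmitoyltransferase, Fbxo30 a ubiquitin ligase subunit, Vmn1r41 a pheromone receptor and Klra3 a receptor of natural killer cells.
Cdk13, chr13:17805048-17805347, minus strand, 52 CG: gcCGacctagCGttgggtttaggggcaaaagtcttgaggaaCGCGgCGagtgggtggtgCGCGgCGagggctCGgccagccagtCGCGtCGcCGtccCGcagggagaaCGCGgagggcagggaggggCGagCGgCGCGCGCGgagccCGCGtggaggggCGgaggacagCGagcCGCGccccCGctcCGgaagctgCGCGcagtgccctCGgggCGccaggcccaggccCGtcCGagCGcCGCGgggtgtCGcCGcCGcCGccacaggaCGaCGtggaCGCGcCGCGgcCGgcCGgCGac
Zdhhc5, chr2:84715115-84715414, minus strand, 52 CG: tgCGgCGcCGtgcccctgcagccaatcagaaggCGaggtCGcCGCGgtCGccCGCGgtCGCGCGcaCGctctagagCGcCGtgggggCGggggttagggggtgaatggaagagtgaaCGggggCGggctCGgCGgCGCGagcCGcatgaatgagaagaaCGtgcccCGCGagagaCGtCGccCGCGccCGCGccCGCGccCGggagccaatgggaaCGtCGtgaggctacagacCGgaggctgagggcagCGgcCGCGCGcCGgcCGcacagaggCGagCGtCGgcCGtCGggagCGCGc
Fbxo30, chr10:11281337-11281636, plus strand, 47 CG: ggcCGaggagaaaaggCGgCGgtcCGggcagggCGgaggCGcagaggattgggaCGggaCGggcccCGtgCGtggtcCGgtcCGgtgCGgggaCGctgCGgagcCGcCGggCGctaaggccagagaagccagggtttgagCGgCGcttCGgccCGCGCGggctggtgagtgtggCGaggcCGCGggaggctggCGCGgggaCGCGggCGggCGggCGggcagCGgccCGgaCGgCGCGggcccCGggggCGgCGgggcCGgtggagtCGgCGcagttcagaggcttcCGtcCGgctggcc
Vmn1r41, chr6:89740638-89740937, plus strand, 1 CG: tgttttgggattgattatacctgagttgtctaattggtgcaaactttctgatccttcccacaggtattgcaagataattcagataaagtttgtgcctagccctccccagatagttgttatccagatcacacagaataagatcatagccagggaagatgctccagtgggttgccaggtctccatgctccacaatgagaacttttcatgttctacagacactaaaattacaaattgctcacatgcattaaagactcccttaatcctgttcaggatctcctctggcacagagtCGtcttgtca
Klra3, chr6:130337577-130337876, minus strand, 3 CG: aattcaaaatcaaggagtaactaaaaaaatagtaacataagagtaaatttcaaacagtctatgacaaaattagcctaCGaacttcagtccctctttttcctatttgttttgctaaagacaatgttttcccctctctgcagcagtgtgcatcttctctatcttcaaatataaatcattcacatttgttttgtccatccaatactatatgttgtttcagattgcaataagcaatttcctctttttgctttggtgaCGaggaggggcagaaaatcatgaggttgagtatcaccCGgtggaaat
Gm11555, chr11:99650132-99650431, minus strand, 2 CG: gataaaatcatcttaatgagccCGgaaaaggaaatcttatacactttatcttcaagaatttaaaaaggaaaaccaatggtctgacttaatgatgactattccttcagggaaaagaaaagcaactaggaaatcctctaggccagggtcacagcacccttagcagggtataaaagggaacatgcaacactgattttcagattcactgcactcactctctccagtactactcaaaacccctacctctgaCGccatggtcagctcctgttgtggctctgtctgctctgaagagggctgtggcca

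The first 3 windows hold 52, 52 and 47 CG and lay in het-only peaks of 1.598, 1.827 and 1.668 kb. The window of Vmn1r41 holds 1 CG inside a het-only peak of 17.61 kb. Those of Klra3 and Gm11555 hold 3 and 2 CG inside KO-only peaks of 6.025 and 4.413 kb. At least 1 CG was found in 95.6% of all 20084 windows.

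A window was called rich in CG at 15 or more, a threshold set after the counts had been seen. By that measure 24 of the 52 het-only windows were rich (46.2%, 33.3 to 59.5%), against 3 of the 88 KO-only windows (3.41%, 1.17 to 9.55%). Shared regions, the merged peaks that meet in both lists, held 862 windows, of which 3.48% were rich (2.45 to 4.93%). Among all 20084 windows 48.1% were rich. Het-only peaks thus covered promoters with CG contents close to those of all promoters, while KO-only and shared peaks covered mainly windows poor in CG, with medians of 3 and 1 CG against 12 for het-only. The Wilson intervals of the het-only and KO-only shares do not overlap. They count windows, and 2 pairs of the 24 rich windows (Pdcd10 with Serpini1 and Lypd4 with Dmrtc2) share a peak.

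**Figure D1:**
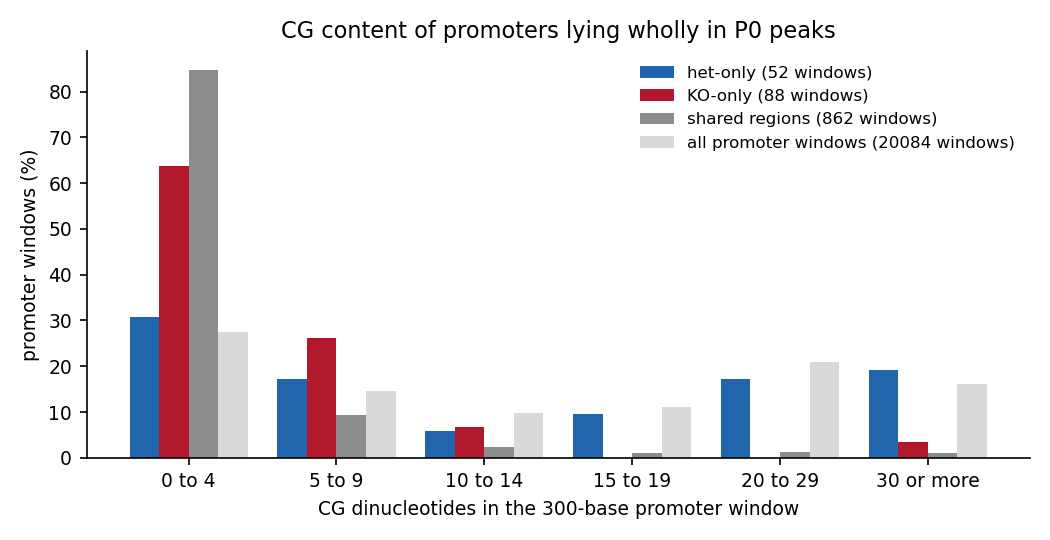
Share of 300-base promoter windows lying wholly in het-only peaks, KO-only peaks or shared regions at P0, by number of CG in the window, beside all promoter windows of autosomal protein-coding genes. Windows with 30 or more CG made up 19.2% of the het-only windows, 3.41% of the KO-only windows and 1.16% of those in shared regions.

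The 24 rich het-only windows belonged to genes of varied function. Tle1 (40 CG) and Tbl1xr1 (25 CG) encode parts of transcriptional corepressor complexes, Nr1d2 (20 CG) a nuclear receptor and Zbtb14 (25 CG) a zinc finger repressor. Arhgap35 (45 CG) and Rasa1 (30 CG) encode GTPase-activating proteins, Rab8a (23 CG) a small GTPase, Usp28 (35 CG) a deubiquitinase and Casp9 (28 CG) an initiator caspase. Bhmg1 (35 CG), also known as Meiosin, encodes the partner of STRA8 in the start of meiosis, and Dmrtc2 (26 CG) a DM domain protein of germ cells. The others were Rmnd5a, Rundc3b, Sdhaf3, Stxbp2, Mtrf1l, Mthfd2l, Lypd4, Polr3k, Pdcd10 and Serpini1, with 15 to 37 CG, beside the 3 printed above. The 3 rich KO-only windows were those of Zbtb14 (a window other than the het-only one, with 56 CG), Orai1, which encodes a calcium channel, and Ppp2r5c, a phosphatase subunit, both with 36 CG. The het-only and KO-only peaks at Zbtb14 lie next to each other without a base in common, and both windows were called whole in both E16.5 lists.

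In the lists of other stages, the rich windows were seldom covered. Of the 24 rich het-only windows, 17 had no base in any of the 6 lists of other stages, and none had a base in the P3 het list. Among the 28 het-only windows with fewer CG, 11 had at least 1 base in the P3 het list. Of the 88 KO-only windows, 48 had at least 1 base in the P3 KO list. Counted over whole lists, the P0 het list held 52 rich windows and the P0 KO list 15, of which 10 were in both, and 38 of the het windows had no base in the KO list. The E13.5 lists held 124 in het and 262 in KO, the E16.5 lists 19 and 15, and the P3 lists 8 and 7. With at least 1 base in a peak in place of the whole window, the KO count at P0 was 32 and the het count 76.

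The targeted gene itself lay among the het-only regions. In the body of Morc1 (chromosome 16, 48431237 to 48630905), 2 het-only peaks covered 3.471 kb and no KO peak was called at P0. They belonged to a run of 5 consecutive het-only peaks with no shared or KO peak between them, which spanned 236.4 kb (48420095 to 48656522) between Dppa2 and Trat1. Over that span, E13.5 had 2.002 kb called in het and 2.565 kb in KO. From E16.5 on the KO lists called little: 0 kb against 3.275 kb in het at E16.5, 0 against 11.72 kb at P0, and 1.001 against 8.581 kb at P3. The excess went on within 500 kb of the gene. In the 500 kb after the body, past Trat1, Retnlb, Retnla, Retnlg and up to Dzip3, there were 10 het-only and 2 KO-only peaks beside 11 shared regions. In the 500 kb before it there were 4 and 1 beside 28. Over 1 Mb on both sides with the body the counts were 19 and 9 beside 86, so beyond 500 kb KO-only peaks were the more numerous. Peak lists hold no expression, so they do not check the knockout, and what the targeted allele does to reads mapped there was not tested.

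Peaks of a repressive mark do not check germ cell identity. Of the 6 germ cell markers, Dazl, Sall4, Dnd1, Nanos2 and Nanos3 had no called base in either P0 list, and Ddx4, whose other name Mvh the transgene bears, had 11.7 kb called in het and 12.2 kb in KO. Among 5 somatic markers of the testis, Amh and Star had none, Gata4 had 4.31 and 5.01 kb, Sox9 had 0 and 0.362 kb, and Cyp11a1 had 0 and 6.34 kb.

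In width the 2 unique sets differed more than in covered length. Het-only peaks covered 20.11 Mb and KO-only peaks 23.23 Mb, so KO-only peaks were 1.83 times as many but covered 1.155 times the length. With the KO list cut to the size of the het list, the longest peaks kept, the numbers were 11821 het-only and 12913 KO-only peaks. At equal size they can differ only as the shared numbers do, so this does not test the difference in number. Het-only peaks had a median length of 1527 bp and an upper quartile of 2737 bp, KO-only peaks 1001 and 1513 bp, and shared peaks medians of 2644 bp in het and 2878 bp in KO. A length of 5 kb or more was reached by 455 het-only peaks, 4.77% of them (4.36 to 5.22%). Among KO-only peaks, 41 were that long (0.235%, 0.174 to 0.319%). At least 3 kb was reached by 20.99% of het-only and 2.53% of KO-only peaks, or by 34.4% and 12.0031% when only peaks with 50% of their length in the other list counted as shared.

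The share of each list without a counterpart depended on length in different ways. Among peaks of 1001 bp, the shortest class, 28.2% of het peaks and 65.4% of KO peaks were unmatched. From there the KO share went to 30.2% for other peaks under 2 kb, 5.601% at 2 to 3 kb, 2.38% at 3 to 5 kb and 0.230% at 5 kb or more. The het share was nearly level over the middle classes, with 11.8%, 11.3% and 9.30%, and was 2.58% at 5 kb or more. In the 2 classes under 2 kb KO peaks were more often unmatched, and in the 3 classes from 2 kb on het peaks were.

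**Figure D2:**
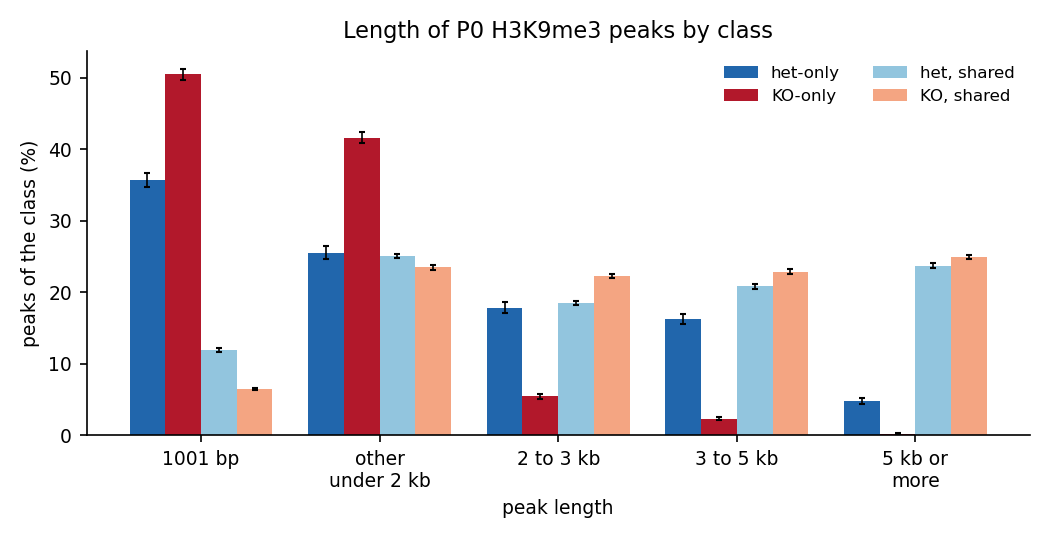
Share of het-only, KO-only and shared P0 peaks in 5 length classes, with 95% Wilson intervals. The KO-only peaks stand mostly in the 2 classes under 2 kb, with 50.4% at 1001 bp, while 17.9% of het-only peaks have 2 to 3 kb and 16.2% have 3 to 5 kb.

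Peaks unique to KO lay inside protein-coding genes more often than shared peaks, and het-only peaks less often. The midpoint was in a gene body for 1979 het-only peaks (20.7%, 19.9 to 21.6%), for 6899 KO-only ones (39.6%, 38.9 to 40.3%) and for 26.3% of shared peaks in either list. The KO-only share was the higher by 18.9 percentage points. Within length classes the same order was seen. In the 1001 bp class the genic share was 22.1% for het-only (20.7 to 23.5%) and 39.4% for KO-only peaks (38.4 to 40.4%). At 3 to 5 kb it was 18.5% (16.7 to 20.6%) and 33.1% (28.7 to 37.8%). Only at 5 kb or more, with 41 KO-only peaks, did the intervals overlap, at 14.1% (11.2 to 17.6%) and 26.8% (15.7 to 41.9%). The KO-only share was the higher one on 19 of 19 autosomes, with ranges over chromosomes of 15.4 to 25.8% in the het-only set and 32.8 to 45.7% in the KO-only set.

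**Figure D3:**
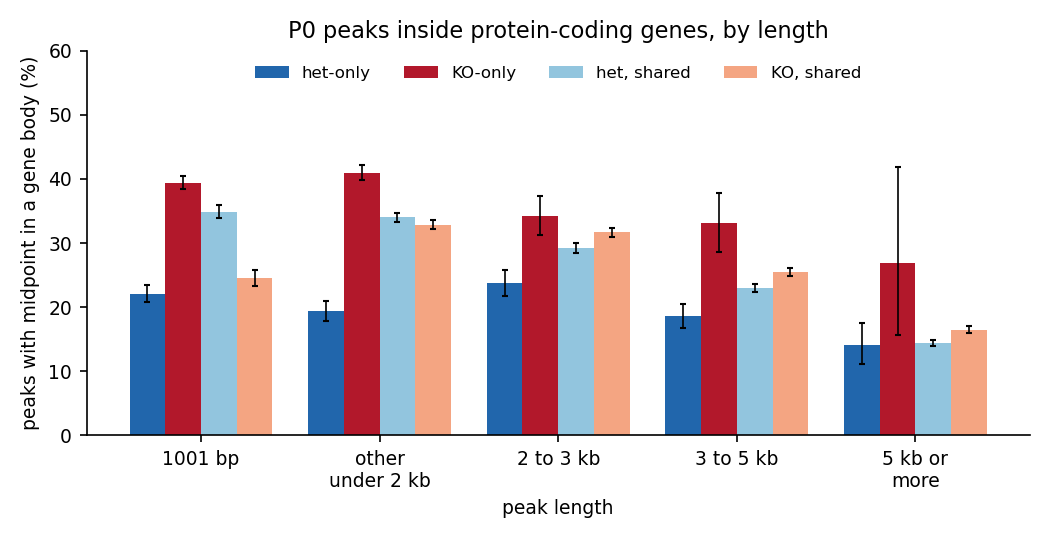
Share of P0 peaks whose midpoint lies in a protein-coding gene, by length class, for het-only, KO-only and shared peaks, with 95% Wilson intervals. KO-only peaks have the highest share in every length class and het-only peaks the lowest, but some intervals overlap. The shares at 5 kb or more of het-only (14.1%) and shared het peaks (14.4%) differ by less than their intervals. Intervals of KO-only and shared KO peaks overlap at 2 to 3 kb (34.25% and 31.67%) and at 5 kb or more (26.83% and 16.45%). Those of het-only and shared KO peaks overlap at 1001 bp (22.09% and 24.52%).

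Peaks outside genes also differed in their neighbourhood, by less than the genic share. Of those, gaps between genes of at least 500 kb held 55.6% of the het-only (54.5 to 56.7%), 45.7% of the KO-only (44.8 to 46.7%) and 52.8% of the shared het peaks. The median distance to the nearest gene was 114 kb for het-only, 76.2 kb for KO-only and 104 kb for shared het peaks. No gene lay within 500 kb for 18.7% (17.8 to 19.6%), 11.8% (11.2 to 12.5%) and 17.2%. Near genes the difference was small: 14.7% of the het-only peaks outside genes (13.9 to 15.5%) and 15.4% of the KO-only ones (14.8 to 16.1%) lay within 10 kb of a gene.

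Single gaps between genes differed widely. The gap from BC030500 to Aadat on chromosome 8 (58914299 to 60505842) held 27 het-only and 6 KO-only peaks, with 465 kb called in het and 356 kb in KO. Others were Cdh8 to Cdh11, with 40 and 17, and Pcdh7 to G6pd2, with 40 and 19. In the opposite direction stood Gm6749 to Grm7 on chromosome 6, with 5 het-only and 24 KO-only peaks, Slc4a3 to Epha4, with 3 and 19, and Prox1 to Rps6kc1 and Ppp2r3a to Ephb1, with 0 and 14 each. These gaps were picked by these counts after values had been seen.

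By gene family, unique peaks outside genes were nearest to a protocadherin gene in 2.13% of het-only (1.83 to 2.48%) and 1.02% of KO-only cases (0.842 to 1.23%), against 1.44% of shared het peaks. Those were 161 het-only and 107 KO-only peaks. The gap from Pcdh20 to Pcdh9 alone held 40 and 21, so a few gaps weigh heavily in these shares. For vomeronasal receptor genes the shares were 0.979%, 0.570% and 1.44%, and for olfactory receptor genes 2.10% (1.80 to 2.45%), 1.61% (1.38 to 1.86%) and 2.43%. For the Zfp zinc finger genes they were 1.64% (1.38 to 1.95%) and 1.35% (1.15 to 1.59%). The intervals of het-only and KO-only peaks overlap for olfactory receptor and Zfp genes.

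Over 1 Mb windows, the density of het-only peaks followed that of shared peaks and gene deserts, and the density of KO-only peaks did not. Windows with no gene midpoint held 6.54 ± 3.57 het-only peaks (mean ± SD over 271 windows), and windows with 21 or more genes held 2.73 ± 2.46 (240 windows). The corresponding KO-only values were 6.19 ± 2.97 and 6.42 ± 2.88. From windows with under 10 shared regions (55 windows) to those with 50 or more (144 windows), het-only peaks went from 1.36 ± 1.31 to 6.06 ± 3.33. KO-only peaks were fewest in the former, 3.24 ± 2.70, most frequent at 20 to 29 shared regions, 8.14 ± 3.37, and 5.66 ± 3.01 at 50 or more. Of 2396 windows with a peak, 544 held more het-only and 1726 more KO-only peaks. With the KO list cut to the size of the het list, the longest peaks kept, these were 1009 and 1213. KO peaks of equal length were cut in order of chromosome name, so short KO peaks were lost unevenly over the chromosomes. What list size alone does to the margin was therefore not tested.

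The window with the largest het-only excess and no KO-only peak was a zinc finger cluster on chromosome 17 (21 to 22 Mb), with 17 het-only peaks, 40 shared regions and 14 Zfp genes, among them Zfp51, Zfp52, Zfp53, Zfp54, Zfp760 and Zfp820. There, 187 kb were called in het and 145 kb in KO at P0. The other stages differed less, with 73.1 kb (het) and 82.6 kb (KO) for E13.5, 134 kb and 124 kb for E16.5, and 148 kb and 137 kb for P3. Next came chromosome 10 at 35 to 36 Mb, with 18 het-only and 3 KO-only peaks around Amd2, chromosome 10 at 47 to 48 Mb, with 16 and 1 and no gene midpoint, and chromosome 5 at 61 to 62 Mb, with 17 and 3 beside G6pd2. All of these were densely marked, with 40 to 52 shared regions.

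The windows with the largest KO-only excess held 21 to 37 shared regions. On chromosome 2 at 92 to 93 Mb, 24 KO-only and 0 het-only peaks lay among 10 genes, including Phf21a, which encodes a reader of unmethylated histone H3, the clock gene Cry2, and Creb3l1. KO called 98 kb there at P0 and 97.6 kb at P3, against 46.1 and 58.6 kb in het, while at E16.5 het called 45.8 kb and KO 34.2 kb. On chromosome 4 at 125 to 126 Mb, around Grik3, Rspo1 and Zc3h12a, there were 22 KO-only and 1 het-only peaks, on chromosome 7 at 36 to 37 Mb, beside Tshz3, 20 and 0, and on chromosome 1 at 124 to 125 Mb, inside Dpp10, 20 and 1.

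Unique peaks lay farther from shared peaks in KO than in het. The median distance to the nearest shared peak was 7959 bp for het-only and 11454 bp for KO-only peaks, and the order was the same on 19 of 19 autosomes. Within 10 kb of a shared peak lay 57.1% of het-only (56.1 to 58.1%) and 45.6% of KO-only peaks (44.9 to 46.4%), and beyond 50 kb 4.64% (4.24 to 5.08%) and 8.37% (7.97 to 8.80%). No peaks of 1 list were closer than 1499 bp to each other, so distances under that value could arise only towards a peak of the other list. The difference held on both sides of the gene boundary, with 11750 and 15857 bp inside genes and 7264 and 9380 bp outside. It was small among peaks of at least 3 kb, at 8300 bp for het-only and 8812 bp for KO-only peaks. The median gap between neighbouring shared regions was 42.9 kb around a het-only peak and 56.6 kb around a KO-only peak. Over all such gaps the median was 14.3 kb. A wide gap has room for more peaks, so medians taken around peaks can exceed 14.3 kb wherever the peaks fall. The value over all gaps is therefore no background for the other medians, and whether unique peaks favour wide gaps was not tested.

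**Figure D4:**
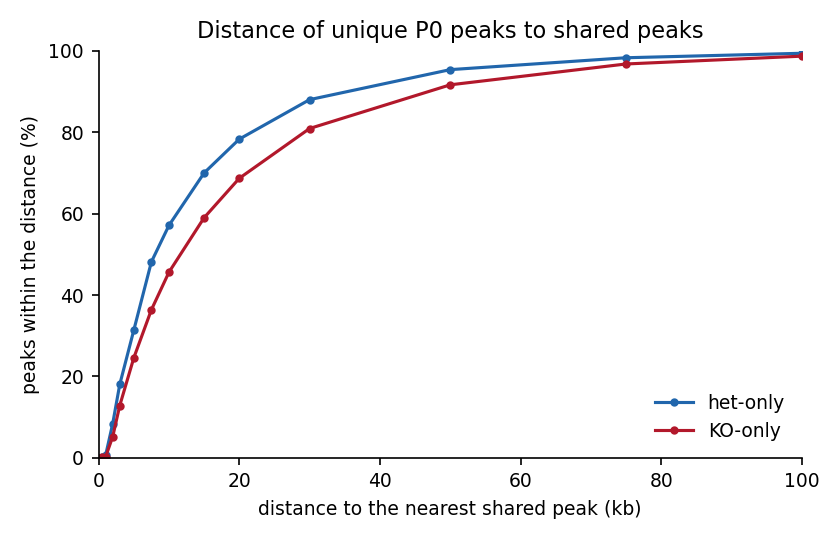
Cumulative share of het-only and KO-only P0 peaks by distance to the nearest shared peak, up to 100 kb. The het-only curve runs above the KO-only curve, with 57.1% against 45.6% at 10 kb and 95.4% against 91.6% at 50 kb.

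The KO-only peak farthest from any shared peak, at 399 kb, had 1.001 kb and lay between Obox7 and Obox2, homeobox genes expressed in oocytes (chromosome 7, 15072847 to 15073847). On chromosome 12 a KO-only peak (18794038 to 18795038) and a het-only peak (18795538 to 18796538) lay side by side, 283 kb (het-only) and 284 kb (KO-only) from the nearest shared peak and without a base in common. Such pairs count as unique on both sides under the rule of 1 shared bp.

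Along the chromosome, 32.4% of het-only and 41.1% of KO-only peaks had a peak of the same class as a direct neighbour, and 47.4% and 48.0% stood between 2 shared regions. On both sides the neighbour was of the same class for 2.97% of het-only (2.64 to 3.33%) and 6.25% of KO-only peaks (5.90 to 6.62%). With the KO list cut to the size of the het list these were 4.51% and 4.69%. That cut removes short KO peaks, and unevenly over the chromosomes, so what list size alone does to the difference was not tested. A neighbour of the opposite class was found for 24.5% and 13.9%. Runs of 3 or more numbered 231 for het-only and 764 for KO-only peaks, with at most 6 and 9 peaks.

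The longest runs also differed in setting. The longest KO-only run, 9 peaks over 473.2 kb on chromosome 11 (77800844 to 78274003), crossed a gene-rich stretch with Myo18a, Sez6, Flot2, Traf4 and Supt6. A run of 6 on chromosome 15 (78739009 to 79175456) crossed Mfng, Card10, Triobp and Sox10, and another of 6 lay along Nfia on chromosome 4. A run of 7 on chromosome 6 (82797403 to 82867213) lay between Hk2 and Sema4f. The longest het-only runs lay mostly between genes: 6 peaks over 43.2 kb between Pot1a and Grm8 on chromosome 6 (26831819 to 26875049), 6 over 37.4 kb between Etv1 and Arl4a on chromosome 12 (39536458 to 39573808), and 5 over 138.2 kb between Tenm2 and Mat2b on chromosome 11. The run between Etv1 and Arl4a had 11.99 kb called in het at P0 and 11.95 kb at P3, and no called base in any other list. Besides the run at Morc1, a run of 5 on chromosome 17 (21665684 to 21766855) crossed Gm10509, Zfp760 and Zfp229 in the zinc finger cluster named above.

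Among the 8 longest het-only peaks, 7 lay between genes and 1 covered Vmn1r41 (chromosome 6, 89738277 to 89755885, 17.6 kb). At P3 this last one was called in both genotypes, over 11.7 kb in het and 14.3 kb in KO. The peak of 15.8 kb between Adcyap1 and Mettl4 (chromosome 17, 94485024 to 94500813) was likewise called over 15.3 and 13.9 kb at E16.5 and 13.8 kb in both P3 lists, so from E16.5 on only the P0 KO list lacked it. By contrast, the peak of 12.8 kb between Olfr578 and Olfr582 (chromosome 7, 103004569 to 103017387) had 12.8 kb called in P3 het, none in P3 KO and at most 1.001 kb before birth. The peaks near Lrrc4c on chromosome 2 (13.2 kb), between Bcas2 and Trim33 on chromosome 3 (12.6 kb) and between Grin3a and Cylc2 on chromosome 4 (12.2 kb) likewise had 6.55 to 9.52 kb called in P3 het and none in P3 KO. Nearly the same was seen at P3 for the peak between Cdh19 and Dsel on chromosome 1 (11.9 kb), of which P3 het called 9.16 kb and P3 KO 0.904 kb. E16.5 KO, however, called 9.22 kb of it. That list also called 4.38 kb of the peak between Grin3a and Cylc2, 2.57 kb of that between Bcas2 and Trim33, and none near Lrrc4c. The longest het-only peak, 18.75 kb between Slc39a10 and Tmeff2 on chromosome 1, had 9.42 kb called in E16.5 KO. At P3 it had 9.825 kb in het and 0.637 kb in KO.

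The longest KO-only peaks were in large part called elsewhere in het. The longest of all, 10.09 kb between Cflar and Casp8 on chromosome 1, had no called base before birth. At P3 it had 8.274 kb called in het and 9.745 kb in KO. The peak of 7.13 kb between Vmn2r102 and Vmn2r103 (chromosome 17, 19728605 to 19735732) was covered over at least 6.35 kb by each of the 6 lists of other stages, and only the P0 het list lacked it. The same held for the peak of 7.78 kb between Pex2 and 1700008P02Rik on chromosome 3, with at least 5.10 kb in each of them. The peak of 8.69 kb between Gm51483 and Ndn (chromosome 7, 62247439 to 62256128), in the imprinted Prader-Willi region, was called whole in both E16.5 lists and at P3 over 1.001 kb in het but 6.59 kb in KO. The peak between Htr5a and Insig1 on chromosome 5 (9.73 kb) was called over 9.69 kb in E16.5 het, had no called base in E16.5 KO, and had over 9.35 kb in both P3 lists.

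Gene by gene, 1277 protein-coding genes (6.18% of 20661) held a het-only midpoint and 3805 (18.4%) a KO-only one, and 698 held both. KO-only peaks without a shared peak were found in 1321 genes (6.39%), and het-only peaks without one in 304 (1.47%). The density per Mb of gene body went from 1.36 in genes under 10 kb to 2.81 in genes of 300 kb or more for het-only peaks, and from 4.61 to 7.54 for KO-only peaks. Large genes therefore led both rankings by number.

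The 8 genes with the most KO-only peaks were Dpp10, Csmd1, Ptprd, Alk, Macrod2, Rbms3, Asic2 and Cntnap2. Dpp10, which encodes a potassium channel accessory subunit, held 24 KO-only and 1 het-only peaks, with 285 kb called in KO and 214 kb in het. Alk, a receptor tyrosine kinase gene, held 18 and 1, with 136 and 87.8 kb. Rbms3, which encodes an RNA-binding protein, held 18 and 1, and Asic2, an acid-sensing ion channel gene, 18 and 2. The difference in Alk was not constant over the stages. KO exceeded het at E13.5 (155 against 66.9 kb) and P3 (156 against 104.9 kb), but not at E16.5 (78.01 against 101.8 kb).

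The 8 genes with the most het-only peaks were Lsamp, Agbl4, Ptprd, Dlg2, Naaladl2, Sugct, Lrp1b and Pcdh15. Agbl4, which encodes a tubulin deglutamylase, held 13 het-only and 5 KO-only peaks, with 144.9 kb called in het and 114 kb in KO. Sugct, a mitochondrial CoA transferase gene, held 10 and 3, with 138 and 118 kb, and Lsamp, a neural adhesion gene, 15 and 9. In 3 of the 8, Ptprd, Dlg2 and Pcdh15, KO-only peaks were nevertheless more numerous, with 19 against 13, 14 against 12 and 11 against 9.

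Per kb of gene body, among genes of at least 10 kb, the largest het-only excess was in Mettl27 (618 bp per kb), Vmn2r11 (528), Matn1 (479.8), Ms4a6d (305) and Gnrhr (287). Gnrhr, the receptor gene of gonadotropin-releasing hormone, had 4.92 kb called in P0 het and no called base in the other 7 lists. Mettl27 had 6.38 kb in P0 het, 6.17 kb in E16.5 het and 1.80 kb in E16.5 KO. The largest KO-only excess was in Serpinb6e, Klrk1, Smo, Pde6h and Lactbl1, at 242 to 302 bp per kb. Smo, which encodes the signal transducer of the Hedgehog pathway, had 9.30 kb called in KO and 1.65 kb in het at P0, 12.9 kb in both lists at P3, and at most 1.001 kb before birth.

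Peaks covering an end of a protein-coding gene were few in both unique sets, with 156 het-only (1.64%, 1.40 to 1.91%) and 243 KO-only peaks (1.40%, 1.23 to 1.58%), against 2.44% and 2.63% of shared het and KO peaks. The longest het-only ones covered ends of Vmn1r41, Gm11295, Gzmk, which encodes a granzyme, Vmn2r11, Tmc2 and Sdhaf3. The longest KO-only ones covered ends of Uimc1, Klra3, Gm11555, Scn4a, a sodium channel gene of muscle, the taste receptor gene Tas2r114, and Cma2.

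Lists of genes tied to germ cells and heterochromatin were counted against those backgrounds of 6.18% and 18.4%. Of 26 matched genes of the piRNA pathway and transposon silencing, 4 held het-only peaks (Ddx4, Piwil2, Morc1 and Tdrd6) and 4 held KO-only peaks (Henmt1, Tdrd7, Dnmt3a and Ddx4). Dnmt3a, which encodes a de novo DNA methyltransferase, had 3 KO-only peaks of 3.85 kb in all and no het peak at P0, though at P3 3.25 kb were called in het and 3.16 kb in KO. Of 26 genes of H3K9 methylation and heterochromatin, 1 held a het-only peak (Kdm4c) and 4 a KO-only peak (Ehmt1, Kdm4c, Kdm4a and Smchd1). With 1 to 4 genes each, these counts cannot be set apart from the background.

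Of 20 germ cell and spermatogonial genes, 0 held a het-only and 3 a KO-only peak. Zbtb16, which encodes the transcription factor PLZF of spermatogonial progenitors, held 5 KO-only peaks, with 18.9 kb called in KO and 7.95 kb in het at P0 and 13.95 and 12.6 kb at P3. The other two, Gfra1 and Sohlh2, held 1 each. Of 36 meiosis genes, 8 held a het-only peak (22.2%) and 7 a KO-only peak (19.4%). The het-only ones were Stag3 and Smc1b of the meiotic cohesin, Bhmg1, Terb1, Mei4, Spata22, Tex14 and Ankrd31. The KO-only ones were Mnd1, Mei4, Spata22, Sycp2l, Ankrd31, Mei1 and Majin. Mei4, Spata22 and Ankrd31 thus held peaks of both classes. Smc1b had 2.48 kb called in P0 het and none in P0 KO, and 3.85 and 1.66 kb at P3. For all genes of 30 to 100 kb, the class that holds the list's median length of 38.03 kb, those shares were 7.80% and 28.6%. Tex14, Ankrd31 and Mei4 are longer, with 150.8, 161.5 and 342.3 kb. The shares were 20.1% and 64.3% for all genes of 100 to 300 kb, and 62.4% and 96.05% at 300 kb or more. The list was thus not matched for length. The meiosis counts are small and were not tested.

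Of 15 somatic markers of the testis, 1 held a het-only peak, the macrophage gene Adgre1, and 3 a KO-only peak, Pdgfra, Acta2 and Cyp11a1. Those shares, 6.67% and 20%, are near the 6.18% and 18.4% of all genes. Cyp11a1, the first enzyme of steroid synthesis in Leydig cells, held 2 KO-only peaks of 6.34 kb in all. No het peak was called there at P0 or P3, and at P3 4.29 kb were called in KO. The defining germ cell markers without calls are given above. A change in the share of somatic cells between the samples was not tested.

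Gene families were counted in the same way. KO-only peaks were found in more members than het-only peaks among solute carrier genes (96 and 35 of 362), potassium channel genes (36 and 15 of 92), cytochrome P450 genes (21 and 8 of 99), cadherin genes (13 and 6 of 23), glutamate receptor genes (17 and 13 of 26), serpin genes (7 and 1 of 62), keratin genes (6 and 0 of 53) and Hox genes (2 and 0 of 39). That order is the one found over all genes, of which 18.4% held a KO-only and 6.18% a het-only peak. The families were not matched for length, and their counts were not tested. Cadherin and glutamate receptor genes have median lengths of 147.7 and 279.4 kb. Their KO-only shares were 56.5% and 65.4% and their het-only shares 26.1% and 50%. Among all genes of 100 to 300 kb these shares were 64.3% and 20.1%. Protocadherin genes held KO-only peaks in 21 and het-only peaks in 3 of 67. The bodies of the clustered members overlap, so a peak counts in several. Cdh13 held 13 KO-only and 0 het-only peaks and Kcnma1, a calcium-gated potassium channel gene, 10 and 0.

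In the other families the counts were as follows. Zfp zinc finger genes, many of which encode repressors of transposons, held KO-only peaks in 37 and het-only peaks in 32 of 388. Zfp950 held 2 het-only peaks of 8.16 kb in all, with 13.49 kb called in het and 3.70 kb in KO at P0. Vomeronasal receptor genes were the family with more het-only members, 16 against 10 of 352 (4.545% and 2.841%), led by Vmn2r11 and Vmn1r41, each with 1 het-only peak. Their median length is 0.96 kb, and among all genes under 10 kb the shares were 0.572% and 1.88%. Olfactory receptor genes held KO-only peaks in 12 and het-only peaks in 8 of 1104, and Speer and Prame family genes in 3 and 2 of 55. No histone gene of 75 held a unique midpoint. The midpoint rule can miss genes shorter than a peak, and the whole body of H2bl1 (0.476 kb) lay in a het-only peak. The 91 symbols that begin with Rpl or Rps had 1 and 1, both in kinase genes, Rps6ka2 with 2 KO-only and Rps6ka5 with 2 het-only peaks.

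Shared peaks leaned to KO in length both inside and outside genes, and more so inside. Where 1 het peak met 1 KO peak (66593 pairs), the KO peak was longer in 64.2% and the het peak in 32.0%, with a median ratio of KO to het length of 1.061. Inside genes the KO peak was longer in 72.1% (71.4 to 72.8%), with a median ratio of 1.135, and outside genes in 61.2% (60.8 to 61.6%), with 1.04. At a factor of at least 2, KO was longer in 4.82% and het in 1.93% of genic pairs, while outside genes the shares were 3.825% and 4.001%. These pairs come from the same 2 lists as the unique peaks, so they are no separate support for the genic share of KO-only peaks.

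Some shared pairs were nearly unique by length. A het peak of 18.5 kb on chromosome 11 between Pom121l12 and Vstm2a (15581508 to 15600010) met a KO peak of 1.001 kb, one of 19.2 kb over Phf14 on chromosome 6 met 1.94 kb, and one of 15.7 kb between Gm4832 and Foxn2 on chromosome 17 met 1.001 kb. In the opposite direction, a KO peak of 12.1 kb between Tbl1xr1 and Naaladl2 on chromosome 3 (23638834 to 23650899) met a het peak of 3.20 kb, although both E16.5 lists had called all of it.

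The unique peaks were then followed into the lists of other stages. Of het-only peaks, 28.9% (28.0 to 29.9%) had no base in any of the 6 other lists, as had 34.8% of KO-only peaks (34.1 to 35.5%) and 3.87% of shared het peaks. Neither E13.5 list called 79.8% of het-only (79.0 to 80.6%) and 84.0% of KO-only peaks (83.5 to 84.6%), and neither E16.5 list 67.3% and 67.7%. At both ages at most 8.56% of a set was called in 1 given genotype only. Among peaks called in 1 P3 list only, the same genotype was the more frequent, with 42.7% of het-only peaks called in P3 het only and 4.15% in P3 KO only, and 23.7% of KO-only peaks in P3 KO only and 3.07% in P3 het only. Shared het peaks leaned to P3 KO as well, with 9.51% in P3 KO only and 3.61% in P3 het only, so a lean to P3 KO was not particular to KO-only peaks.

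That recurrence depended on width. Of het-only peaks of 1001 bp, 12.7% (11.7 to 13.9%) were called in P3 het only and 7.502% (6.66 to 8.44%) in P3 KO only, and 67.7% in neither. KO-only peaks of 1001 bp were called in P3 KO only in 18.02% (17.2 to 18.8%), in P3 het only in 3.45% and in neither in 63.7%. For shared het peaks of that length those shares were 24.8%, 3.87% and 33.3%, and for shared KO peaks 14.03%, 16.2% and 37.3%. At 3 kb or more, 75.04% of het-only peaks were called in P3 het only, and 39.1% of KO-only peaks in P3 KO only with another 39.8% in both P3 lists. Position in genes mattered less: 45.8% of genic and 41.9% of other het-only peaks were called in P3 het only, and 24.1% and 23.5% of KO-only peaks in P3 KO only. KO-only peaks in genes were, however, called in both P3 lists in 24.5% (23.5 to 25.5%), against 15.9% (15.2 to 16.6%) outside.

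**Figure D5:**
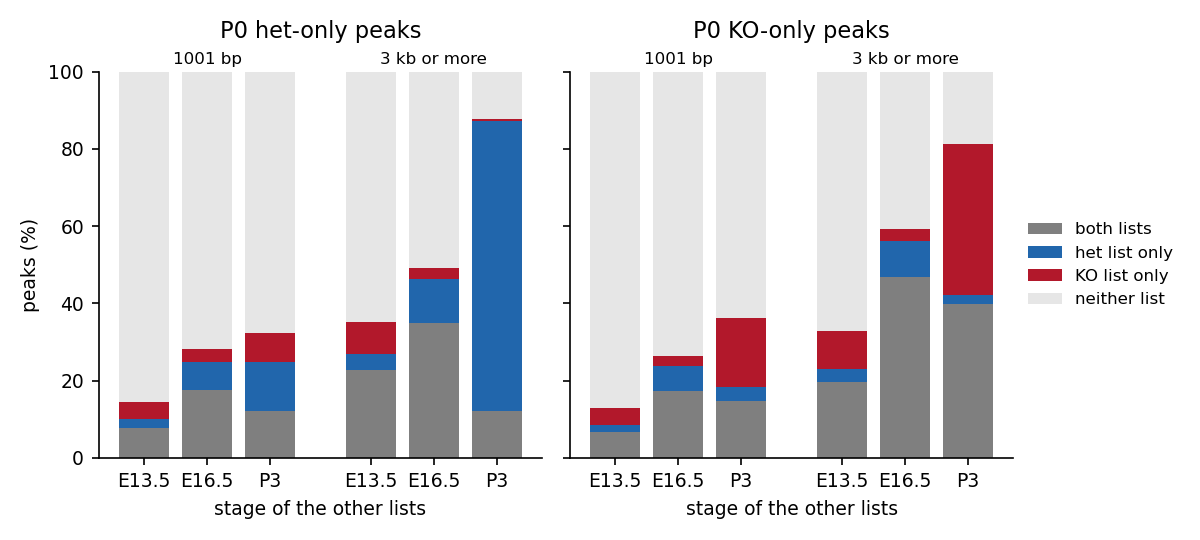
Share of het-only peaks (left) and KO-only peaks (right) at P0 that were called in both lists, 1 list or neither list of E13.5, E16.5 and P3, for peaks of 1001 bp and of 3 kb or more. At P3 75.04% of long het-only peaks were called in het only, and 39.1% of long KO-only peaks in KO only.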

How the data were processed

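H3K9me3 ChIP-seq peak lists were used as the authors deposited them, 1 for each genotype and stage, with 3 columns (chromosome, start and end) and no score. The deposited values are positions in base pairs, and starts were read as counted from 0. The submitters' processing notes name build mm10 and bcl2fastq 2.20, cutadapt 1.18, Bowtie2 2.3.4.1, deepTools 3.5.0 and HOMER 4.10, without their order. The caller's threshold, its control and read depth are not given in the sources used here. The H3 samples were not used here.

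Peaks of the 19 autosomes were compared in Python 3.11.15 with numpy 2.4.6, pandas 2.3.3 and scipy 1.17.1. A peak was genic when its midpoint lay in a protein-coding gene of RefSeq GRCm38.p6, and the distance to a shared peak was the gap to the nearest merged shared region, of which there were 70122. The interval functions were tested on simulated lists with known answers. The peaks, the 20 gene lists and the thresholds were chosen with earlier results of these data known. Named genes and regions were the longest, the most frequent, the most isolated and those in the longest runs, the extreme 1 Mb windows and up to 4 members of each list with the most unique base pairs; further list members, the gaps between genes and the CG-rich promoters were chosen after their values were seen. Dnmt3c and Tex11 were not matched to an autosomal protein-coding gene. Alternatives changed the definition of a shared peak, list size, short peaks, merging, chromosomes and the gene definition. Some results that the rule names are not reported here.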

Additional observations from a re-analysis of the deposited data

Results flagged for a closer look

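On the X chromosome, which the autosomal comparison leaves out, 875 of 4682 het peaks (18.7%, 95% Wilson interval 17.6 to 19.8%) and 715 of 4454 KO peaks (16.1%, 15 to 17.2%) had no counterpart. The het share was higher there by 2.64 percentage points, whereas on the autosomes the difference, het minus KO, was -7.95 points. It was singled out because X data entered no comparison above and the order was opposite, and the difference between X and autosomes was not tested. Unique X peaks had a median length of 1552 bp in het and 1001 bp in KO, and 15.1% and 18.2% of them were genic. The Y chromosome had 6 het-only of 48 and 11 KO-only of 49 peaks.

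The number of CG-rich promoter windows lying wholly in peaks, het minus KO, was -138 at E13.5 (124 against 262) and 37 at P0 (52 against 15). Both counts were lower at P0, but het minus KO had opposite signs at the 2 stages, which is why they were singled out, with 1 list per genotype and stage, and the difference between stages was not tested.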

How the results depend on the processing

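No paired analysis was possible because each genotype had 1 peak list at P0. In every alternative run the order of het-only and KO-only values was kept, for number, width, genic share, distance, genes hit, neighbours and CG-rich promoters. For number, the runs that took equally many peaks from each list say little. There the unique numbers can differ only as the shared numbers do. Equal list sizes left the het list whole and cut the KO list. KO peaks of equal length were cut in order of chromosome name, so short KO peaks were lost unevenly over the chromosomes. That run therefore does not show what list size alone does to the other results. Counting as shared only peaks with 50% of their length in the other list gave 34.4% and 12.0031% of het-only and KO-only peaks at 3 kb or more, 19.4% and 38.0281% in genes, median distances of 5855 and 8727 bp, and 7.01% and 20.1% of genes hit. The longest peaks, as many from each list as 50% of the shorter one, gave 67.2% and 52.4%, 18.6% and 32.8%, and 16490 and 22848 bp, with 7052 KO-only peaks against 6627 het-only. Equal list sizes, the longest peaks kept, gave 11821 and 12913 peaks, 19.0847% and 3.41% at 3 kb or more, 21.8% of het-only peaks in genes, 8608 bp for het-only, 7.69% and 14.7% of genes, 4.51% and 4.69% with both neighbours alike, and 1009 windows with more het-only peaks. Without peaks of 1001 bp the values were 30.8% and 6.09943%, 9589 and 13099 bp, and 5.19% and 15.9% of genes. Any base in a gene gave 21.7% of het-only peaks, all genes in the annotation 29.2% and 48.8%, X and Y included 38.7% of KO-only peaks, gene bodies with 5 kb flanks 9.30% and 22.7% of genes, and neighbours within 50 kb 4.45% for KO-only. CG-rich windows numbered 20 in het and 5 in KO at 30 CG or more, 32 in KO at 10 or more, and 32 in KO with 1 base in a peak. Merging within 1 kb changed nothing, since no peaks of a list were that close. The alternatives on CG, windows and, for genes, list size were chosen after seeing the data.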
